A study of Mus musculus with 32 samples.

Results

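The 10 genes described here make, conjugate, move and sense bile acids: Cyp7a1, Cyp7b1, Cyp8b1, Cyp27a1, Cyp39a1, Slc10a1, Abcb11, Baat, Nr0b2 and Nr1h4. They were taken by name from the 55401 Ensembl gene IDs of the count tables, each matched to 1 ID, after an earlier look at these livers had shown Cyp39a1 higher in COX10 KO. Because that contrast chose them, the COX10 KO against CTL values in liver are given as a description, with no p-value, and how many of the 10 passed a fit is printed only beside the share of all genes that did, while sex, the other tissues and the tissue contrasts were tested. The mice were C57BL/6 at 200 days of age. COX10 KO mice lack COX10, an enzyme needed to build cytochrome c oxidase, where Cre driven from the Myl1 locus is active, which is skeletal muscle, so liver and hypothalamus were not the targeted tissues. The exact genotype of the controls is not given in the sources used here beyond CTL. There were 6 COX10 KO and 6 CTL libraries of liver, 6 COX10 KO and 6 CTL libraries of calf muscle (gastrocnemius and soleus), and 4 COX10 KO and 4 CTL libraries of hypothalamus. Liver and muscle are labelled as 3 females and 3 males of each genotype, and hypothalamus as male throughout.

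Bile acids are made from cholesterol in hepatocytes. In the classical route Cyp7a1 adds the first hydroxyl group and sets the rate, and Cyp8b1 steers the product to cholic acid. In the alternative routes Cyp27a1 oxidizes the side chain of cholesterol. Cyp7b1 and Cyp39a1 hydroxylate oxysterols, Cyp39a1 with a preference for 24-hydroxycholesterol. Baat joins the acids to taurine or glycine, Slc10a1 (NTCP) takes them up from blood and Abcb11 (BSEP) pumps them into bile. Nr1h4 encodes FXR, the nuclear receptor that binds bile acids, and Nr0b2 encodes SHP, a repressor induced by FXR that lowers Cyp7a1 and Cyp8b1. In mice Cyp7b1 is known as a gene with higher expression in male liver.

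Among the liver libraries, total counts ran between 674311 and 3197080 in COX10 KO and between 1955599 and 16044634 in CTL. COX10 KO 3 was the shallowest, with Alb at 20549 CPM against at least 46019 CPM in every other liver. Levels are given as CPM, the read count of a gene relative to the library's total after scaling by trimmed mean of M values (TMM) within a tissue. Transcripts of Xist and of Y-linked genes matched the labelled sex in 10 of 12 livers. Although labelled female, CTL 1 had 1746 Y-linked counts and 1 Xist count, and CTL 4, although labelled male, had 0 Y-linked counts and 450 Xist counts. Both are kept in the comparison of genotypes and left out of the main comparison of sexes. Cox10 itself was at 23.8 to 135.8 CPM in COX10 KO livers against 28.0 to 48.5 CPM in CTL livers, at 95.2 to 139.8 CPM in COX10 KO muscle against 46.4 to 144.1 CPM in CTL muscle, and at 70.8 to 94.5 CPM in COX10 KO hypothalamus against 48.7 to 82.2 CPM in CTL hypothalamus. Reads were counted from the 3′ end of transcripts and the labels do not name the deleted exon, so these levels do not check the deletion. All 10 hepatocyte markers were detected in both genotypes, with a summed level of 95808 to 203808 CPM in COX10 KO livers and 93682 to 154903 CPM in CTL livers.

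The promoters of Cyp8b1, Nr0b2 and Abcb11 are printed first. Cyp8b1 and Nr0b2 drew notice because the 3 COX10 KO livers with the most Cyp8b1 had the least Nr0b2, which promoter letters do not test. The windows hold 250 bases before and 50 after the RefSeq start site (GRCm38.p6), written 5′ to 3′ on the gene's strand. Capitals mark letters that matched, on either strand, 1 of 4 searched motifs: CAAAGTCCA (the kind HNF4A binds), CAAGGNCA (LRH-1), the FXR type inverted repeat (AGGNCA, then any base, then TGACCT) and TTCNNNGAA (STAT5).
Cyp8b1, chr9:121916256-121916555, minus strand: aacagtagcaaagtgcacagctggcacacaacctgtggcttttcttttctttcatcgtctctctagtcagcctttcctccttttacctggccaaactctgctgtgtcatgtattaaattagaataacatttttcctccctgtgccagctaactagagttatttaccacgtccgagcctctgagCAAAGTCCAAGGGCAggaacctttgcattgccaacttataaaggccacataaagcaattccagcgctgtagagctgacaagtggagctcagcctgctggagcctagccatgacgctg
Nr0b2, chr4:133553126-133553425, plus strand: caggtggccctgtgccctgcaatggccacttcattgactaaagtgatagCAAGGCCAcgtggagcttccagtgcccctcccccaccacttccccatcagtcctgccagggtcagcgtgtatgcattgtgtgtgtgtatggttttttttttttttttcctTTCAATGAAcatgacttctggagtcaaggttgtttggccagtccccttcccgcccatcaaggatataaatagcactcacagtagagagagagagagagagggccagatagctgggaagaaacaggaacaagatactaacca
Abcb11, chr2:69342567-69342866, minus strand: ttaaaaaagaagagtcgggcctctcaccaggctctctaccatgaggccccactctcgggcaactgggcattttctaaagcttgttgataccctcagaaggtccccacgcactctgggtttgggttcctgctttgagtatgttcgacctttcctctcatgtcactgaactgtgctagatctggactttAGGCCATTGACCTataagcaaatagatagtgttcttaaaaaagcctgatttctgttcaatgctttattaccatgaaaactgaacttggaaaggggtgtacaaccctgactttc
In Cyp8b1 the CAAAGTCCA match began 67 bases before the start site and overlapped a CAAGGNCA match that began 60 bases before it. In Nr0b2 a CAAGGNCA match began 201 bases and a TTCNNNGAA match 91 bases before the start, and in Abcb11 the FXR type repeat began 63 bases before it. Of 32851 promoters in the table, 0.475% held CAAAGTCCA, 6.71% CAAGGNCA, 0.0365% the FXR type repeat and 8.30% TTCNNNGAA. Promoters of 6 of the 10 genes were in the table. Slc10a1 also held TTCNNNGAA, and Cyp27a1 and Nr1h4 held none of the 4 in these windows. A match is a description of letters, not of binding.

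The question put to the liver libraries was how this pathway stood in mice whose respiratory defect was directed to muscle. Of the 10 genes, Cyp39a1 stood higher in COX10 KO livers and Cyp7b1 stood lower, while Cyp8b1 was spread to both sides of CTL. Of the genes with small differences of the means, Nr1h4 had 3 of 6 COX10 KO livers above all CTL livers. Abcb11 had 2 of 6 and Baat 1 of 6 below all CTL livers. The other COX10 KO livers lay within the CTL range for these genes. Slc10a1 had 3 of 6 above all CTL livers, and Cyp7a1 had 4 of 6, Cyp27a1 1 of 6 and Nr0b2 1 of 6 below them. Between the genotypes, edgeR called 0 of the 10 genes and 9 of 9707 genes tested (0.0927%), with 483 genes at an unadjusted p under 0.05. DESeq2 called 2 of the 10 among 55 of 12747 genes (0.431%) and edgeR with no filter on low counts called 2 (0.862% of genes called), while edgeR called 1 with sex read from transcripts (0.288%) and 1 with a replicate block (0.105%). Nothing is read from these counts, since the contrast helped to choose the genes. The median log2 fold change of the 10 genes was -0.19, against -0.02 over all genes tested, and 4 of the 10 were positive. In bulk tissue, fewer cells of a type and less RNA per cell cannot be told apart.

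**Figure D1:**
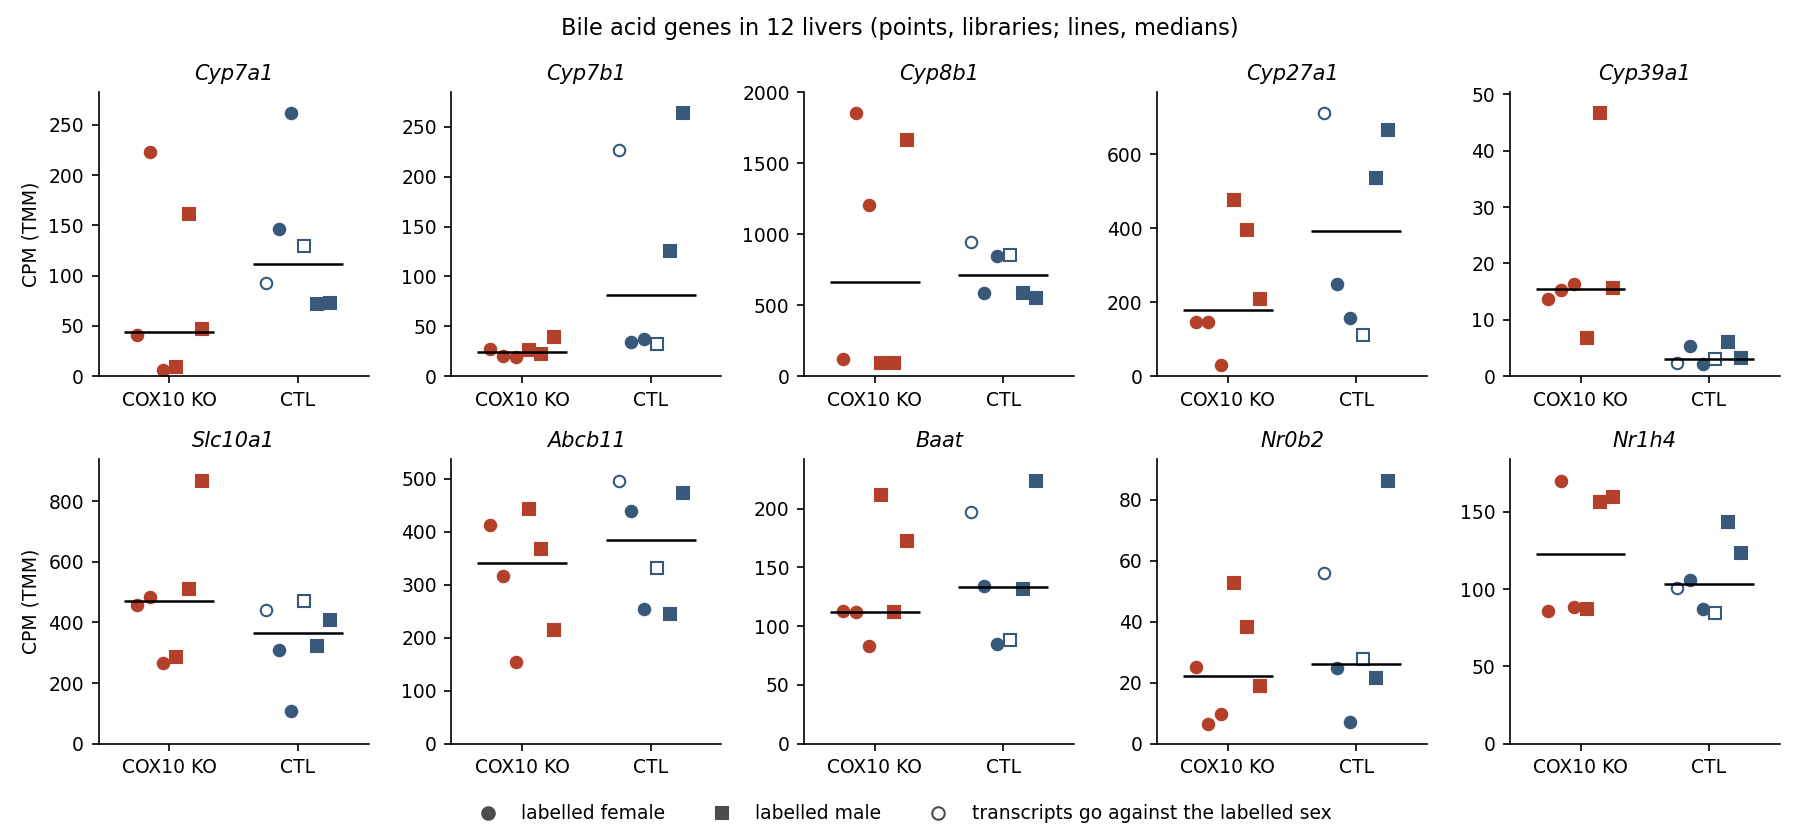
Level of each of the 10 genes in each liver library (vertical axes, CPM scaled by TMM, each starting at 0), COX10 KO left of CTL, with circles for labelled females, squares for labelled males, open symbols for the 2 libraries whose transcripts go against the labelled sex, and lines at the medians. Cyp39a1 is the gene whose 6 COX10 KO points all lie above the 6 CTL points, and Cyp8b1 has 3 COX10 KO points above and 3 below all CTL points.

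Cyp39a1 lies at chr17:43667425-43751431 (GRCm38, plus strand). Its level was lowest at 6.81, median 15.4 and highest at 46.7 CPM in COX10 KO livers, against 2.11, 3.08 and 6.07 CPM in CTL livers. All 6 COX10 KO libraries were above all 6 CTL libraries, which 0.196% of the genes tested also showed. The means were 19.1 ± 14.0 CPM in COX10 KO and 3.69 ± 1.64 CPM in CTL (SD, n = 6 each), and the fitted log2 fold change was 2.34 (SE 0.44). The values rest on 228 counts in 6 COX10 KO libraries and 97 counts in 6 CTL libraries. COX10 KO 5, a male, was the highest library. Without it the log2 fold change was 1.88, the lowest over the alternatives run, and the highest was 2.59. In each sex alone, over the 10 libraries that match their labels, it was 1.96 (SE 0.77) in females and 2.35 (SE 0.73) in males. The gene holds a small nuclear RNA gene on the same strand in the annotation, so reads in the shared stretch could be dropped or given to either.

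Cyp7b1 (chr3:18071950-18243338, minus strand) showed the largest difference downward. Its level was lowest at 19.6, median 24.1 and highest at 39.5 CPM in COX10 KO livers, against 32.4, 81.3 and 263.9 CPM in CTL livers. Of the COX10 KO libraries, 5 of 6 were below every CTL library, and COX10 KO 6 was above 3 of them. The log2 fold change was -2.21 (SE 0.53). The CTL livers fell into a low set of 34.5, 37.5 and 32.4 CPM (CTL 2, CTL 3 and the library labelled CTL 4) and a high set of 227.3, 125.1 and 263.9 CPM (the library labelled CTL 1, CTL 5 and CTL 6). The low set is the 3 libraries with Xist and the high set the 3 with Y-linked transcripts, so the spread of CTL follows sex as read from transcripts. Without the libraries labelled CTL 1 and CTL 4 the log2 fold change was -1.79, and without CTL 1 alone -1.61. Like Cyp39a1, Cyp7b1 holds a small nuclear RNA gene on the same strand.

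Cyp7a1 (chr4:6265612-6275633, minus strand) varied widely among COX10 KO livers. It was at 40.9, 222.6, 6.55, 9.08, 161.1 and 47.1 CPM in COX10 KO 1 to 6, against 92.8, 146.0, 261.8, 129.9, 71.9 and 72.9 CPM in CTL 1 to 6. Here 4 of 6 COX10 KO libraries were below all CTL libraries and the remaining pair lay within the CTL range. The highest COX10 KO library was 34.0 times the lowest, while this ratio was 3.64 in CTL. The lowest value was 4 counts in COX10 KO 3, the shallowest liver library, and the next was 16 counts in COX10 KO 4. Every CTL library had at least 249 counts. The log2 fold change was -0.60 (SE 0.67), so the difference between genotypes was smaller than its error.

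Cyp8b1 (chr9:121914356-121916305, minus strand) split the COX10 KO livers. It was at 1852, 1206 and 1665 CPM in COX10 KO 2, 3 and 6 and at 121.4, 95.9 and 91.3 CPM in COX10 KO 1, 4 and 5, against 944.8, 584.7, 844.4, 855.8, 585.7 and 549.6 CPM in CTL 1 to 6. Thus 3 COX10 KO libraries stood above and 3 below every CTL library, each side holding both sexes. The fitted log2 fold change was 0.16 (SE 0.69) and it changed sign when libraries were left out, between -0.85 and 0.42. Nr0b2 (chr4:133553376-133556536, plus strand), the repressor SHP, was at 6.37, 9.82 and 19.0 CPM in COX10 KO 2, 3 and 6 and at 25.1, 52.8 and 38.1 CPM in COX10 KO 1, 4 and 5, so the 3 livers with the most Cyp8b1 had the least Nr0b2. In CTL livers Nr0b2 was at 55.9, 24.8, 7.17, 27.8, 21.7 and 86.4 CPM in CTL 1 to 6. CTL 1, with the most Cyp8b1 of the CTL livers, had more Nr0b2 than CTL 2 to 5. The order in COX10 KO livers was noticed among 6 libraries after their values were seen and was not tested. Cyp7a1 did not split the COX10 KO livers in the same way. It was at 222.6, 6.55 and 47.1 CPM in COX10 KO 2, 3 and 6. In COX10 KO 1, 4 and 5 it was at 40.9, 9.08 and 161.1 CPM. The Nr0b2 difference between genotypes was -0.69 (SE 0.51) on the log2 scale, with a median of 22.1 CPM in COX10 KO and 26.3 CPM in CTL.

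**Figure D2:**
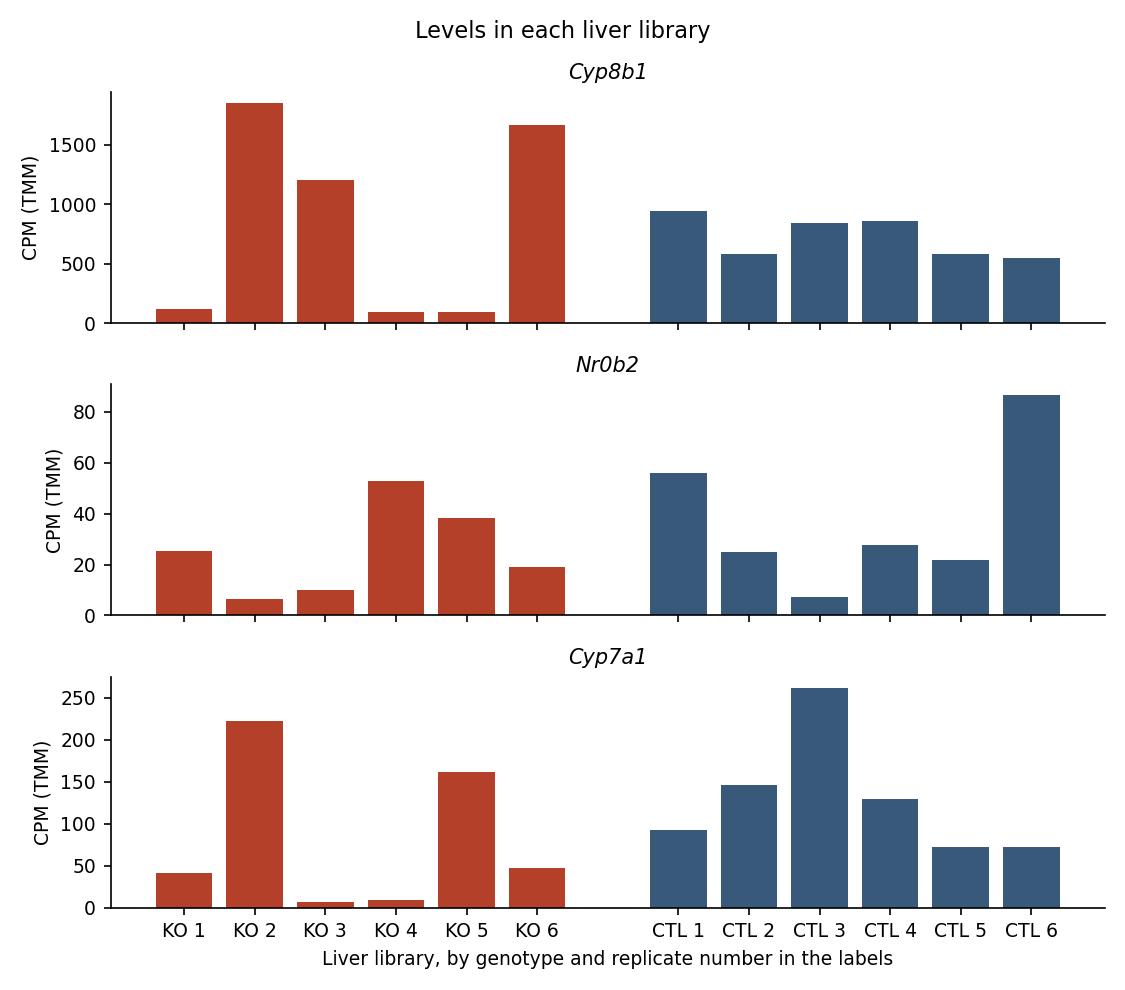
Level of Cyp8b1, Nr0b2 and Cyp7a1 in each liver library (vertical axes, CPM scaled by TMM, from 0), COX10 KO 1 to 6 on the left and CTL 1 to 6 on the right. COX10 KO 2, 3 and 6 show high Cyp8b1 (1206 to 1852 CPM) with low Nr0b2 (6.37 to 19.0 CPM), and COX10 KO 1, 4 and 5 show low Cyp8b1 (91.3 to 121.4 CPM) with higher Nr0b2 (25.1 to 52.8 CPM).

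Cyp27a1 (chr1:74713574-74737892, plus strand), the mitochondrial sterol 27-hydroxylase, was lowest at 31.1, median 177.8 and highest at 475.0 CPM in COX10 KO livers, against 110.7, 391.7 and 711.1 CPM in CTL livers. The lowest library, COX10 KO 3, was the only 1 outside the CTL range, and the log2 fold change was -1.03 (SE 0.55). Nr1h4, the receptor FXR (chr10:89454234-89533585, minus strand), was the gene with the smallest spread, at 86.1 to 170.4 CPM in COX10 KO and 84.9 to 143.3 CPM in CTL, with a log2 fold change of 0.21 (SE 0.26).

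The transporters and the conjugating enzyme differed by less than 2 SE. Slc10a1 (chr12:80953183-80968705, minus strand) had a median of 470.7 CPM in COX10 KO and 364.8 CPM in CTL, and 3 of 6 COX10 KO livers were above all CTL livers (log2 fold change 0.48, SE 0.36). Abcb11 (chr2:69238282-69342616, minus strand) was at 153.9 to 442.6 CPM in COX10 KO and 245.5 to 496.4 CPM in CTL (log2 fold change -0.24, SE 0.32). Baat (chr4:49489422-49506557, minus strand) was at 83.5 to 211.7 CPM in COX10 KO and 84.7 to 223.9 CPM in CTL (log2 fold change -0.14, SE 0.30). An interval of 2 SE around the Baat value runs between -0.75 and 0.47, which leaves room for a change of that size either way. Abcb11 has an antisense gene in the annotation, and whether the counting used strand is not stated.

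Of the rest of the pathway, on lists that hold 22 other synthesis genes, 17 other bile acid and biliary lipid transporters and 21 regulators, 18, 14 and 17 genes passed the filter on low counts in liver and 0 were called. Their median log2 fold changes were 0.07, -0.03 and 0.06, against -0.02 over all genes. Scp2, which carries sterols and holds the thiolase of side chain shortening, had a log2 fold change of 1.26 (SE 0.29, not called). Slco1a4, an organic anion uptake carrier, was at 162.3 to 456.2 CPM in COX10 KO and 25.3 to 125.4 CPM in CTL, so the genotypes did not overlap (log2 fold change 1.94, SE 0.42, not called). Ppargc1a, a coactivator that raises gluconeogenic genes and Cyp7a1, was at 14.7 to 29.8 CPM in COX10 KO and 4.25 to 13.0 CPM in CTL, again without overlap (log2 fold change 1.37, SE 0.32, not called). Non-overlap of either direction was shown by 0.443% of all genes tested. Slc10a2, the apical bile acid carrier, had a log2 fold change of -2.53 (SE 0.75, not called), Sult2a8, a bile acid sulfotransferase of male mouse liver, of -1.38 (SE 0.56) and Nr1i3, the receptor CAR, of 0.85 (SE 0.44). Slc10a2 was near the floor in COX10 KO livers, with 24 counts over 6 libraries, a median of 0.56 CPM and a highest of 9.65 CPM. Hsd3b7, the second enzyme of the classical route, was listed at 0 in all 32 libraries and overlaps another annotated gene on the same strand.

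The levels of marker lists are given beside these values. All 14 macrophage markers had a negative log2 fold change in COX10 KO livers (median -1.39, 0 called), and their summed level was 239.9 to 764.3 CPM in COX10 KO and 362.4 to 1876 CPM in CTL, with no marker at 0 in either genotype. All 11 male-high liver genes that were tested were also negative (median -3.51, 0 called). Skeletal muscle markers reached 129 and 647 CPM in summed level in COX10 KO 4 and 6, against 1.22 to 33.8 CPM in CTL livers and 1.27 to 11.5 CPM in the other COX10 KO livers. Erythroid markers summed to 1755 to 2799 CPM in COX10 KO and 1367 to 15294 CPM in CTL. No gene of the 12 marker and sex-biased lists was called between genotypes by edgeR. Their part in the values of the 10 genes was not tested. Without COX10 KO 3 and the libraries labelled CTL 1 and CTL 4, the log2 fold change was 2.16 for Cyp39a1, -1.82 for Cyp7b1 and 0.27 for Cyp8b1.

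**Figure D3:**
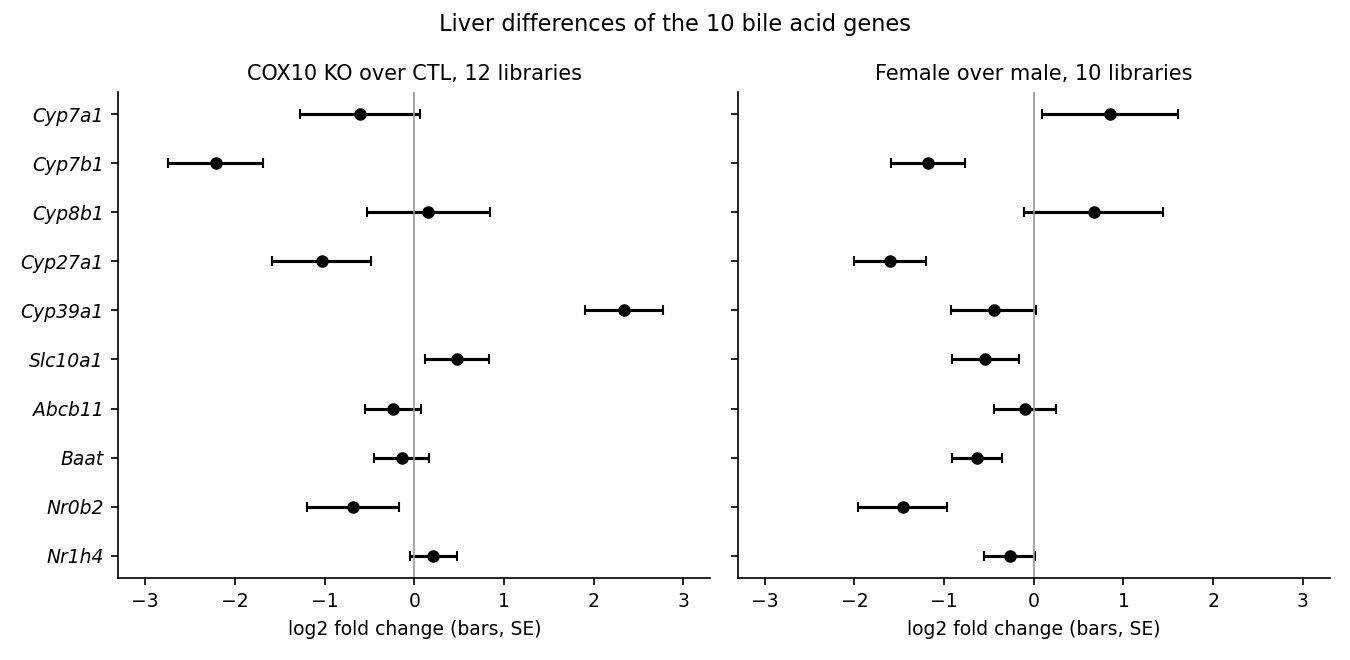
Fitted log2 fold changes of the 10 genes in liver (points) with 1 SE on each side (bars), COX10 KO over CTL in 12 libraries on the left and female over male in the 10 libraries that match their labels on the right. On the left Cyp39a1 (2.34) and Cyp7b1 (-2.21) lie farthest from 0, and on the right Cyp27a1 (-1.61) and Nr0b2 (-1.46).

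Sex was tested in the 10 livers whose transcripts match their label, 5 female and 5 male, with genotype as a covariate. Cyp27a1 was lower in females, and 8 of the 10 genes had a negative difference. Female livers had 146.1, 146.6 and 31.1 CPM of Cyp27a1 in COX10 KO and 248.8 and 158.1 CPM in CTL. Male livers had 475.0, 394.5 and 209.1 CPM in COX10 KO and 534.6 and 666.1 CPM in CTL. Over both genotypes the 2 sexes overlapped by CTL 2 and COX10 KO 6 alone. The difference was -1.61 on the log2 scale (SE 0.40, adjusted p = 0.0418 by edgeR), the only call among the 10 genes, where 6.46% of 9895 genes were called and 3.15% were called lower in females. The median difference was -0.50 over the 10 genes and 0.07 over all genes. This call did not survive leaving out any 1 of 8 of the 10 libraries (adjusted p = 0.0530 to 0.118 by edgeR) and held without COX10 KO 3 or COX10 KO 5, with the difference between -1.77 and -1.37 throughout.

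Nr0b2 and Cyp7b1 were next, with differences of -1.46 (SE 0.50, adjusted p = 0.0841 by edgeR) and -1.18 (SE 0.41, adjusted p = 0.0884 by edgeR), neither past the threshold of 0.05. DESeq2 called both (adjusted p = 0.0385 for Nr0b2 and 0.0382 for Cyp7b1, where 13.8% of genes were called), edgeR with no filter called both (8.8% of genes), and edgeR called Cyp7b1 without COX10 KO 5 (adjusted p = 0.0388). With all 12 livers and sex read from transcripts, 4 of the 10 genes were called, all lower in females, where 22.5% of 9707 genes were called and 13.0% were called lower: Cyp27a1, Cyp7b1 (-1.54), Nr0b2 (-1.41) and Baat (-0.77). With all 12 as labelled, 0 of the 10 genes and 0 of 9707 genes were called by edgeR, with 944 genes at an unadjusted p under 0.05. Cyp7a1 had a difference of 0.85 (SE 0.76), and an interval of 2 SE runs between -0.67 and 2.37. In CTL livers alone with sex read from transcripts, a fit added after the data had been seen, Cyp7a1 was higher in females by 1.23 (adjusted p = 0.0179 by edgeR) and Cyp7b1 was lower by a difference of -2.52 (adjusted p = 0.00170 by edgeR), where 25.8% of 9973 genes were called. Cyp27a1 was called too, and Cyp39a1 did not pass the filter there. In COX10 KO livers alone 0 of the 10 genes and 5 of 8944 genes (0.0559%) were called by edgeR, with 720 at an unadjusted p under 0.05.

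Among the other pathway genes, 3 of 18 synthesis genes tested fell in females and 0 rose, where 3.15% of all genes were called lower in females and 6.46% in either direction. They were Amacr, the racemase of side chain oxidation (-2.11, adjusted p = 0.0380 by edgeR), Cyp3a11, which hydroxylates bile acids and drugs (-2.88, adjusted p = 0.0444 by edgeR), and Stard4, a cytosolic cholesterol carrier (-1.05, adjusted p = 0.0463 by edgeR). Of 15 transporters tested, Slco1a1 fell (-6.12, adjusted p = 0.0193 by edgeR) and Slc22a7, an organic anion carrier, rose (2.65, adjusted p = 0.0266 by edgeR). None of 17 regulators was called by edgeR, and the nearest were Nr1h3, the oxysterol receptor LXR-alpha (0.96, adjusted p = 0.0581), and Hnf4a (-0.86, adjusted p = 0.0666). Macrophage markers differed with sex as well, 5 of 14 being higher in females, and so did Acta1 of skeletal muscle, which was lower in females. Their part in the differences of the 10 genes was not tested.

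Whether the genotype difference itself depended on sex was tested as an interaction in the same 10 livers. For Cyp7b1 the fitted COX10 KO effect was -0.67 (SE 0.43) in females and -2.71 (SE 0.42) in males. Female livers had 27.3, 20.4 and 19.6 CPM in COX10 KO, against 34.5 and 37.5 CPM in CTL. Male livers had 26.1, 22.1 and 39.5 CPM in COX10 KO, against 125.1 and 263.9 CPM in CTL. The range of COX10 KO males, 22.1 to 39.5 CPM, overlapped that of females of either genotype, 19.6 to 37.5 CPM. The interaction was 2.04 (SE 0.60, adjusted p = 1.00 by edgeR), and 2.19 (SE 0.50, adjusted p = 0.368 by edgeR) over 12 livers with sex read from transcripts, so a dependence on sex was not shown. Of the 10 genes 0 were called by edgeR or DESeq2, where edgeR called 1 of 10407 genes (0.00961%; 0.00997% over 12 livers) and DESeq2 10 (0.0785%), with 287 genes at an unadjusted p under 0.05. For Cyp39a1 the interaction was -0.39 with an interval of 2 SE between -2.46 and 1.68, and for Cyp7a1 it was -1.19 with an interval between -4.24 and 1.86.

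The 12 male-high genes on the list are set beside Cyp7b1 as a description. Their summed level was 5300, 1026 and 4990 CPM in COX10 KO males, against 15181 and 19624 CPM in CTL males, and 802.7, 1690 and 1116 CPM in COX10 KO females, against 1665 and 1572 CPM in CTL females. The library labelled CTL 1, with Y-linked transcripts, was at 17539 CPM, and the library labelled CTL 4, with Xist, was at 2776 CPM. COX10 KO 5, a male, lay within the range of females.

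**Figure D4:**
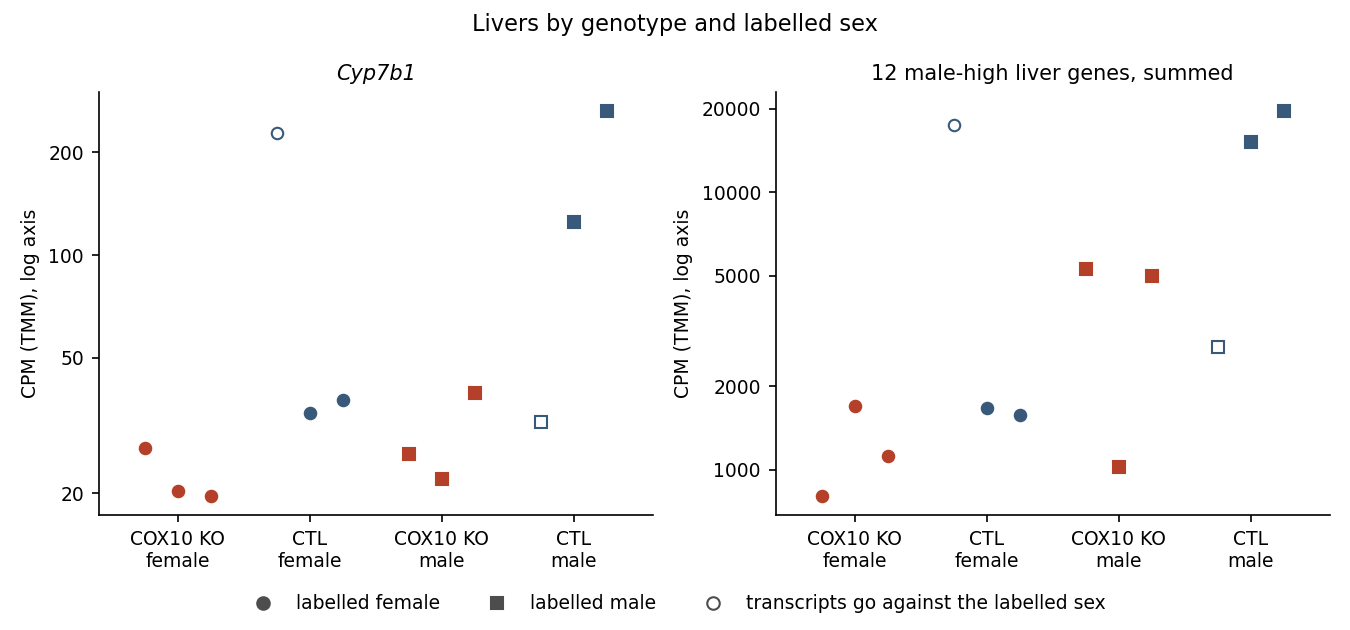
Level of Cyp7b1 (left) and summed level of 12 male-high liver genes (right) in each liver library, grouped by genotype and labelled sex, on log axes in CPM scaled by TMM, with open symbols for the 2 libraries whose transcripts go against the labelled sex. In Cyp7b1 the 3 COX10 KO males lie at 22.1 to 39.5 CPM and the CTL males that match their label at 125.1 and 263.9 CPM.

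In muscle, the targeted tissue, 1 of the 10 genes had enough counts for the main test. Cyp27a1 was at 22.3, 41.0 and 63.9 CPM (lowest, median and highest) in COX10 KO muscle, against 32.2, 59.6 and 90.8 CPM in CTL muscle. The difference was -0.51 (SE 0.28, adjusted p = 0.243 by edgeR) and was not called, where 14.3% of 11636 genes were called. An interval of 2 SE runs between -1.07 and 0.06. The other 9 genes held at most 26 counts in any muscle library, except Cyp39a1 with up to 39. Cyp7a1 had 0 counts in COX10 KO muscle and 1 count in CTL muscle.

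Some of these few counts lay in 1 library. CTL 2 of muscle, the shallowest at 434494 counts, held 15 of the 26 CTL counts of Cyp8b1, 6 of 6 of Slc10a1 and 6 of 12 of Abcb11. The same library had Alb at 1595 CPM, against 6.17 to 238.2 CPM in COX10 KO muscle and 17.9 to 97.4 CPM in the other CTL muscle libraries. Its part in these counts was not tested. Abcb11, at 3 counts in COX10 KO and 12 in CTL muscle, did not pass the filter. Without a filter it was called lower in COX10 KO by edgeR (adjusted p = 0.0434, where 9.86% of 21525 genes were called), and DESeq2 called it too (adjusted p = 0.0150, where 14.9% of 14780 genes were called). With the replicate block 3 of the 10 genes were tested and 0 called, where 7.77% of genes were called.

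Genes that act with these enzymes and receptors were called in muscle. Of 10 other synthesis genes tested in muscle, Acox2, Por and Fdxr rose and 0 fell, where 14.3% of all genes were called, 803 higher and 865 lower in COX10 KO. Acox2, the peroxisomal oxidase that shortens the bile acid side chain and branched fatty acids, was at 20.9, 22.1, 47.9, 38.9, 43.9 and 25.2 CPM in COX10 KO 1 to 6, against 0.23, 3.57, 0.0, 0.24, 0.0 and 0.0 CPM in CTL 1 to 6. It was thus nearly undetected in CTL muscle and present in all 6 COX10 KO muscles, with a log2 fold change of 6.84 (SE 0.56, adjusted p = 2.13e-06 by edgeR). Por, the reductase of microsomal P450 enzymes, rose by 1.48 on the log2 scale (SE 0.29, adjusted p = 0.00373 by edgeR), and Fdxr, the reductase that serves mitochondrial P450 enzymes such as Cyp27a1, by 1.21 (SE 0.35, adjusted p = 0.0288 by edgeR). Of 10 regulators tested, Nr3c1, the glucocorticoid receptor, Rxra, the partner of FXR, and Nr1h3 fell, with log2 fold changes of -1.01, -0.74 and -0.96 (adjusted p = 0.00432, 0.0100 and 0.0283 by edgeR), and 0 rose. In the same muscles 4 of 9 macrophage markers tested rose, Cd68 among them, and 3 of 6 skeletal muscle markers fell. Their part in these changes was not tested.

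In hypothalamus 3 of the 10 genes were tested and 0 were called. Cyp7b1 was at 27.4, 22.4, 22.2 and 19.3 CPM in COX10 KO 1 to 4, against 27.3, 19.3, 17.7 and 16.2 CPM in CTL 1 to 4. The ranges overlapped and the difference was 0.16 (SE 0.22, adjusted p = 1.00 by edgeR). Cyp27a1 was at 7.56, 4.14, 6.52 and 8.65 CPM in COX10 KO, against 7.77, 8.28, 9.29 and 12.4 CPM in CTL, with 3 of 4 COX10 KO libraries below all CTL libraries and a difference of -0.46 (SE 0.27, adjusted p = 1.00 by edgeR). Abcb11 was at 17.9, 14.4, 7.93 and 6.21 CPM in COX10 KO, against 18.2, 10.8, 5.67 and 4.36 CPM in CTL, and differed by 0.17 (SE 0.44, adjusted p = 1.00 by edgeR). Libraries of the same number stood in the same order in both genotypes for Cyp7b1 and Abcb11. Over all genes edgeR and DESeq2 each called 0 (0.0%) of 13504 and 25451 genes, with 211 genes at an unadjusted p under 0.05 in edgeR. With the replicate block, edgeR called 2 of 14212 genes (0.0141%) and 0 of the 10 (adjusted p = 0.525 to 0.666).

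In CTL mice the 10 genes were compared between tissues in 1 fit over 16 libraries, whose scaling differs from that within liver. Of the 10 genes, 9 were higher in liver than in muscle, where 55.1% of 14212 genes were called and 26.9% were called higher in liver, and 10 were higher in liver than in hypothalamus, where 68.3% were called and 29.1% called higher in liver. The genes were chosen from a liver pathway, so this direction was set by the choice and is given as a description of levels. Within muscle the filter on low counts passed 1 of the 10 genes and within hypothalamus 3, so most rest on liver counts here. By the fit, Nr1h4 was 235-fold higher in liver than in muscle and 409-fold higher than in hypothalamus. It had 10 counts in CTL muscle and 13 in CTL hypothalamus. The ratios of its pooled levels were 228 (counting interval 124 to 475) and 289 (169 to 543). Nr0b2 had 0 counts in CTL muscle, so that its pooled level was at least 339-fold higher in liver at a floor of 3 counts over the group, and Cyp7a1 had 0 counts in CTL hypothalamus, at least 1267-fold. Slc10a1 had 2 counts in hypothalamus, a ratio of pooled levels of 6786 with an exact Poisson interval of 1879 to 56035, which covers counting error only.

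Outside liver, Cyp27a1 was detected in every CTL library of both tissues, and Cyp7b1, Abcb11, Cyp39a1 and Nr1h4 in every CTL library of hypothalamus, Cyp39a1 with 2 to 47 counts and Nr1h4 with 1 to 5 counts. Cyp27a1 was at 128.4 to 865.6 CPM in CTL liver, 36.7 to 100.2 CPM in CTL muscle and 5.33 to 7.91 CPM in CTL hypothalamus, and fell in that order, with the lowest liver library not far above the highest muscle library. It was 7.56-fold higher in liver than in muscle (adjusted p = 6.80e-06 by edgeR). Cyp7b1 was at 37.5 to 298.1 CPM in liver, 10.4 to 18.8 CPM in hypothalamus and 0.0 to 3.06 CPM in muscle. Abcb11, the bile salt pump, was at 286.4 to 604.3 CPM in liver and 2.79 to 12.5 CPM in hypothalamus. Cyp39a1 was low everywhere, at 2.40 to 7.07 CPM in liver, 0.0 to 4.59 CPM in muscle and 0.30 to 2.17 CPM in hypothalamus. It was the exception in the comparison with muscle (log2 fold change of liver over muscle 1.10, SE 0.52, adjusted p = 0.0790 by edgeR), though it was called without muscle CTL 5 (adjusted p = 0.0249 by edgeR). The log2 fold change of liver over hypothalamus was 1.71 (SE 0.54, adjusted p = 0.00824 by edgeR).

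**Figure D5:**
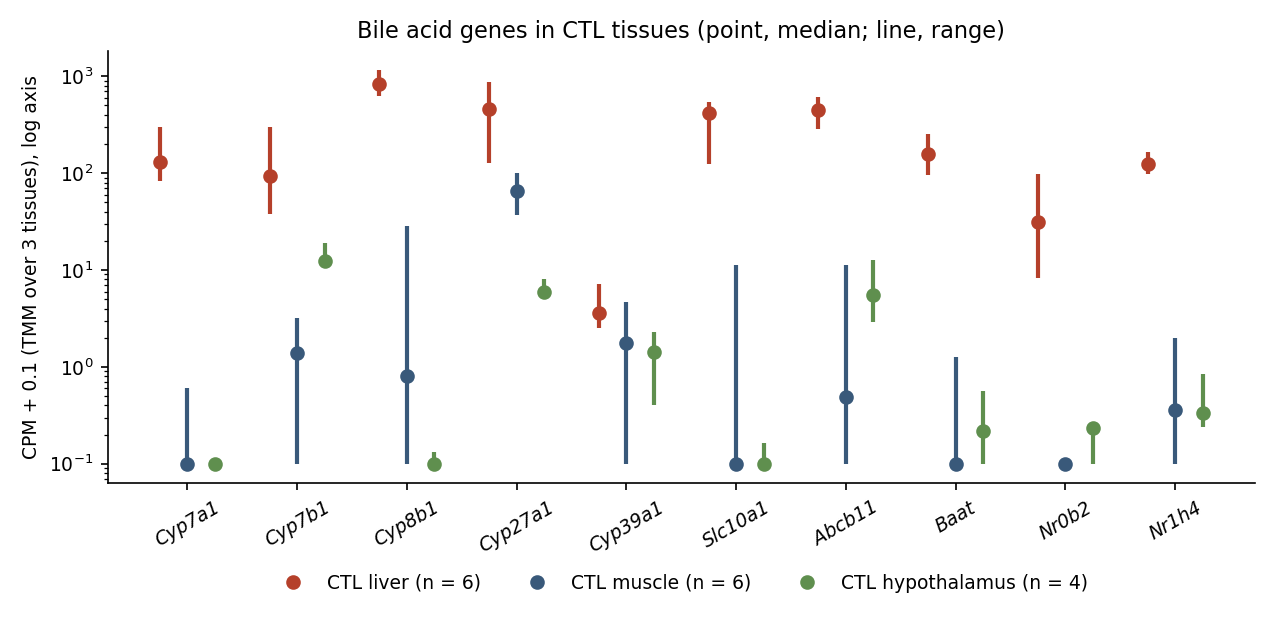
Level of the 10 genes in CTL liver, muscle and hypothalamus (vertical axis, CPM + 0.1 on a log scale, TMM over the 3 tissues), with a point at the median and a line over the range of 6, 6 and 4 libraries. Cyp39a1 is the gene whose liver range (2.40 to 7.07 CPM) overlaps that of muscle (0.0 to 4.59 CPM).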

How the data were processed

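The authors prepared Lexogen QuantSeq 3′ libraries, aligned reads with STAR 2.5.0a to GRCm38.p6 and deposited raw counts per gene from HTSeq 0.6.1, per the submitters' processing notes. The strand setting of the counting is not given in the sources used here. Of 55401 gene IDs, 55141 were paired with a symbol.

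The deposited counts were tested with edgeR 4.0.16 (quasi-likelihood, TMM scaling, filter by expression, Benjamini-Hochberg adjusted p under 0.05) in R 4.3.3. In liver and muscle the genotype fits held labelled sex as a covariate, a label that transcripts contradict for liver CTL 1 and CTL 4. Over the alternatives run, sex read from transcripts among them, the liver genotype difference was -2.39 to -1.61 for Cyp7b1 and 1.88 to 2.59 for Cyp39a1. SE is the log2 fold change over the square root of F. DESeq2 1.42.0 was an alternative, beside other scaling, other filters, leaving out libraries and a replicate block. The fit in CTL livers alone and the fit without COX10 KO 3 and the livers labelled CTL 1 and CTL 4 were added after the data were seen. Scripts were tested on simulated data. Total counts ran between 434494 and 11404800 in muscle and between 3526613 and 22321322 in hypothalamus. The labels do not state that replicates share anything by number. In hypothalamus the deviations of same-numbered libraries correlated at 0.81, 0.20, 0.40 and 0.31 across genes. For number 4 the correlation with another number was higher, at 0.47, so whether the numbers pair samples there is not settled. The main hypothalamus fit did not use the numbers, and the fit with a replicate block did. No label states that replicates are separate animals, so p-values measure the spread between these samples.

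The 10 genes and the lists were chosen with earlier results of these data known. The text names all 10 genes, and of each other list the called genes up to 4, by smallest p, or otherwise the 2 with the smallest p. Marker lists are given as counts. Counting intervals cover 95%. Promoters came from RefSeq.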

Additional observations from a re-analysis of the deposited data

Results flagged for a closer look

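Among 45 groups of 4 to 6 libraries with enough counts, 5 held a library far from the others, 3 of them through muscle CTL 2. The critical value used is passed by chance in about 1 in 20 groups of normally spread values, which low counts are not. Cyp39a1 was at 46.7 CPM in liver COX10 KO 5, against 6.81 to 16.4 CPM in the other 5 COX10 KO livers. In muscle CTL 2, Cyp8b1 was at 26.8 CPM (15 counts), against 0.0 to 1.60 CPM in the other CTL muscles. Slc10a1 was at 10.7 CPM in the same library (6 counts), against 0.0 in the others, and Abcb11 also at 10.7 CPM (6 counts), against 0.0 to 1.06 CPM. The same library had the highest Alb of the muscles, at 1595 CPM. Cyp8b1 was at 4.56 CPM in muscle COX10 KO 4 (26 counts), against 0.0 to 1.02 CPM, and that library had the highest Alb of the COX10 KO muscles, at 238.2 CPM. Whether liver RNA in these muscles accounts for the counts was not tested.

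The genotype difference of A1bg, a female-high liver gene, differed between the sexes (interaction, adjusted p = 0.00805 by edgeR), the 1 gene of 10407 that passed. It was at 8.09, 9.77 and 0.0 CPM in COX10 KO females, against 2176 and 4565 CPM in CTL females, and at 2.84, 2.51 and 2.08 CPM in COX10 KO males, against 0.0 and 0.0 CPM in CTL males. The library labelled CTL 4, which holds Xist, was at 609.6 CPM.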

How the results depend on the processing

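Limits of depth: 5 to 93 counts of Cyp39a1 and 4 to 1442 counts of Cyp7a1 a liver library, and under 40 counts of 9 of the 10 genes in any muscle library. In liver, genotype calls over all genes were 9 in the main fit, 0 at 10 counts in every library, 55 with DESeq2, 175 with no filter, 28 with sex read from transcripts, 16 without the libraries labelled CTL 1 and CTL 4, 18 when COX10 KO 3 was left out too (added after seeing the data), and 4 (without COX10 KO 6) to 13 (without COX10 KO 4 or the library labelled CTL 4) leaving out 1 library. Of the 10 genes, DESeq2 and no filter called 2 each, the replicate block and sex read from transcripts 1 each, and leaving out 1 library 0 to 1 (1 without COX10 KO 4). Sex calls were 639 in the main fit, 0 with all 12 livers as labelled, 2186 with sex read from transcripts, 319 at 10 counts in every library, 5 in COX10 KO livers, 2577 in CTL livers (added), 1698 with DESeq2, 1722 with no filter and 10 (without CTL 6) to 1941 (without COX10 KO 5) leaving out 1 library, at most 99 for 7 of the 10 libraries left out. Of the 10 genes the main fit of sex called 1. The fits listed after it called 0, 4, 1, 0, 3, 3, 3 and 0 to 2 in that order, and the fit with no genotype term called 0. Interaction calls were 1 in the main fit, 0 with 12 livers as labelled, 0 at 10 counts in every library, 10 with DESeq2, 80 with no filter and 0 (without COX10 KO 5, CTL 5 or CTL 6) to 2 (without COX10 KO 4) leaving out 1 library. Muscle calls were 1668, against 1111 at 10 counts in every library and 913 (without CTL 6) to 2052 (without CTL 4) leaving out 1 library, and DESeq2 and no filter called 1 of the 10 genes (Abcb11). At 10 counts in every library the tissue fits called 2378 genes for liver against muscle and 2603 for liver against hypothalamus, and 1 of the 10 genes each, the only 1 of them that this filter keeps. Leaving out 1 library turned the liver genotype difference of Baat (-0.27 to 0.043) and Cyp8b1 (-0.85 to 0.42), the sex difference of Cyp39a1 (-0.73 to 0.18) and Abcb11 (-0.30 to 0.075), the interaction of Cyp39a1 (-0.93 to 0.64) and Cyp7a1 (-3.02 to 0.19), and Abcb11 in hypothalamus (-0.13 to 0.70), none of them called. The interaction was looked at in this way for Cyp7b1, Cyp39a1 and Cyp7a1 only. Causes were not tested.

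With the replicate number as a block, 11 genes were called in liver, 987 in muscle, 2 in hypothalamus and 6455 between CTL liver and muscle. In liver each number correlated higher with another number than with its own (own correlations -0.54 to 0.51). In muscle the own correlations were -0.18 to 0.24, so this block is not taken as a pairing in either tissue. No paired analysis was possible for liver against hypothalamus because liver 1 to 3 are labelled female and every hypothalamus male, nor for sex because the sexes share no numbers.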

Other observations

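Cyp2b9, a P450 enzyme that is high in female mouse liver, was at 255.9, 749.8 and 198.4 CPM in COX10 KO males, against 28.6 and 0.0 CPM in CTL males, and at 357.4, 416.8 and 859.3 CPM in COX10 KO females, against 292.0 and 277.0 CPM in CTL females. Of the 11 female-high genes on the list, 9 were tested between the genotypes, 6 had a positive log2 fold change and 0 were called (median 1.42, against -0.02 over all genes), while A1bg, Sult2a1 and Cyp17a1 had values of -7.46, -3.57 and -1.35. Slco1a1, a male-high uptake carrier of bile acids and steroids, was at 119.7, 2.51 and 18.4 CPM in COX10 KO males, against 190.3 and 302.1 CPM in CTL males, and at most 1.27 CPM in COX10 KO females, against at most 6.75 CPM in CTL females. These genes were picked for display after their values were seen. The values are set beside those of Cyp7b1 as a description, with 2 CTL males.

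Cyp2c70, which makes the muricholic acids of mice, was at 73.1 to 3229 CPM in COX10 KO livers and 532.0 to 1559 CPM in CTL livers. The 3 COX10 KO livers high in Cyp8b1 (2, 3 and 6) had 136.4, 571.2 and 73.1 CPM of Cyp2c70, and the 3 low in Cyp8b1 (1, 4 and 5) had 1041, 3229 and 1098 CPM. This was noticed after the values were seen and was not tested.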
